A study of Mus musculus with 2 samples.

Results

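The Rfam miRNA precursor families of mouse testicular extracellular vesicles (EVs), the membrane-bound particles that cells release, are 80 of the 27065 entries that were listed. Rfam is a database of RNA families, each described by a model of its sequence and folded shape, and cmsearch gives a tag to a family when it fits that model. The 80 are all entries of the type precursor whose description lacks an upper-case MIR followed by digits, which is how Rfam writes most plant families. Among the 90 precursor entries, 10 have such a name. The small RNA was sequenced in 2 libraries of 1 condition, called replicate 1 and replicate 2 in the labels, from the testes of adult C57/BL6 mice. Proteinase K and RNase A, which digest protein and RNA outside a membrane, were applied to the EVs of each library. No label tells whether separate mice or preparations stand behind the replicates, and their spread may thus be technical. Without an untreated, blank or second group, no test between conditions was made, and all values are a description with their error.

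A miRNA gene is transcribed as a long RNA in which a hairpin forms. The nuclear enzyme Drosha releases the hairpin, Dicer cuts it into a short duplex, and one strand is loaded into an Argonaute protein, where bases 2 to 8 of the strand, the seed, pair with target mRNAs. miRNAs that share a seed are grouped into families, and in the testis several families are known from germ cells, Sertoli cells and interstitial cells. In these data a tag was first compared with miRBase, a catalogue of miRNAs, and went to Rfam only when miRBase and the piRNA and snoRNA databases had not taken it. A count of an Rfam family and a count of a mouse miRNA therefore hold different tags. The entries give no position within the hairpin, so whether a tag came from the mature strand, the loop or the longer precursor was not analysed here.

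The listed counts summed to 21970654 in library 1 and 24829208 in library 2, and levels are given as counts per 1000000 listed counts (CPM), as the mean ± SD of the 2 libraries. A pair of values joined by "and" gives library 1 first and library 2 second. The 80 families held 46588 and 29052 counts, or 0.212% (exact Clopper-Pearson 95% interval 0.210 to 0.214) and 0.117% (0.116 to 0.118) of the listed counts. Copies made by PCR are not separate molecules, and intervals throughout cover the error of counting alone. In sum they had 1645 ± 672 CPM. Each of the 80 had at least 3 counts in each library, 76 had a mean count of at least 10 and 43 a mean count of at least 100. The mouse miRNA rows, 229 of the type mature and 296 of the type hairpin, had 26938 ± 6254 CPM. Rows of the type hairpin also carry the name of a mature strand, and no source used here tells how they differ from mature rows.

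The sequences below belong to the families with the highest levels, and show what their members share. They are mature strands from RefSeq (GRCm38.p6), written 5′ to 3′ with the seed in capitals. The mouse rows name 537 miRNAs, of which 440 had a sequence in this table. The printed strands of the mir-30 family have the same seed, and so do both printed strands of the mir-26 family. Those of the mir-8/mir-141/mir-200 family have a pair of seeds.
miR-451a: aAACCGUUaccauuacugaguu
miR-30a-5p: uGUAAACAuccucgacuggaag
miR-30c-5p: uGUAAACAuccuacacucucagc
miR-30e-5p: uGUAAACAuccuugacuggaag
miR-26a-5p: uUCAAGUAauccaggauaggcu
miR-26b-5p: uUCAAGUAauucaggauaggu
miR-200a-3p: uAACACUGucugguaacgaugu
miR-141-3p: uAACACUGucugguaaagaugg
miR-200b-3p: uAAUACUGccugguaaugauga
miR-200c-3p: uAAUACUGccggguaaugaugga
miR-429-3p: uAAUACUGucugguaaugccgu

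The highest family was mir-451, with 4897 and 3285 counts (223 and 132 CPM), a mean of 178 ± 64.1 CPM. Its mouse miRNA, miR-451a, is known from red blood cells and is cut by Argonaute 2 and not by Dicer. It lies on chromosome 11 at chr11:78073186-78073207 on the plus strand, outside the other genes of GENCODE M21. The mature strand reaches across the loop of its hairpin, shown here because the count of a family entry can hold any part of it, with the mature strand in capitals.
Mir451a: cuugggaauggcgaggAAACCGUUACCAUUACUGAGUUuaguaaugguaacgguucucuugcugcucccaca
Next came mir-30, with 3824 and 4174 counts (174 and 168 CPM), a mean of 171 ± 4.20 CPM. In library 2 it stood above mir-451, and its log2 ratio of library 2 over library 1 was -0.05 (95% interval -0.11 to 0.01). That interval holds for scaling by listed totals alone, as the ratio was -0.24 with TMM and -0.23 with DESeq2 size factors, both outside it. The mir-26 family followed with 3168 and 2066 counts (144 and 83.2 CPM). The genes of miR-26a and miR-26b lie in introns of Ctdspl, Ctdsp2 and Ctdsp1, which encode related phosphatases, at chr1:74394324-74394344 for miR-26b. The mir-8/mir-141/mir-200 family, which keeps epithelial cells in their state by repressing the factors ZEB1 and ZEB2, had 2702 and 1137 counts (123 and 45.8 CPM). It stood at rank 4 in library 1 and 6 in library 2.

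**Figure D1:**
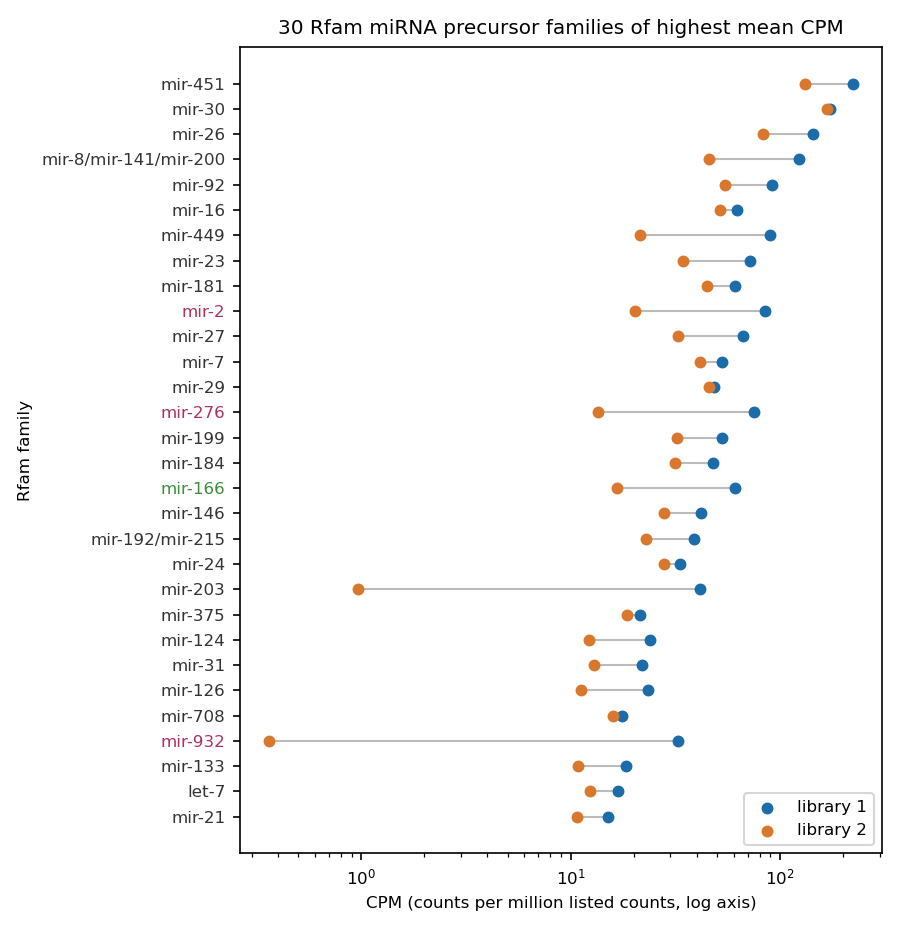
Level of the 30 Rfam miRNA precursor families of highest mean CPM, with 1 point per library on a log axis and a grey line joining the points of a family; names in red are families known from invertebrates and the name in green is a plant family. In library 1 mir-451 was highest at 223 CPM, in library 2 mir-30 at 168 CPM, and mir-203 and mir-932 had the longest lines.

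Counts were concentrated in few families. The 5 highest held 35.6% and 41.4% of all their counts, and the 15 highest 67.0% and 70.2%. The mir-92 family, which includes a member of the growth-linked miR-17-92 cluster, had 91.7 and 54.5 CPM, and mir-16, which represses genes of the cell cycle, had 62.2 and 51.8 CPM. The families mir-23 and mir-27, which are transcribed together with mir-24, had 71.9 and 34.4 CPM and 67.0 and 32.5 CPM, and mir-24 itself had 33.3 and 27.9 CPM. The mir-181 family, broadly expressed and with known roles in lymphocytes, had 60.8 and 44.7 CPM, and mir-7, best known from neurons and endocrine cells, had 52.8 and 41.3 CPM. At the low end mir-484 had 7 and 5 counts, and mir-155, known from activated leukocytes, had 10 and 9 counts. Across the 80 families the log2 CPM of the libraries had a Pearson r of 0.82 and a Spearman rho of 0.84, as a description of families that share libraries and depth.

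By name alone, 64 of the 80 families were classed as known from vertebrates, 15 from invertebrates only and 1, mir-166, from plants. The 64 include lin-4, a nematode name whose mammalian relative is miR-125. The word animal therefore does not cover all of them: mir-166, which in plants represses leaf polarity factors, is written in lower case by Rfam and so met the rule. It had 1347 and 414 counts (61.3 and 16.7 CPM). Of the invertebrate families, mir-2, which in Drosophila represses pro-apoptotic genes, had 1862 and 506 counts (84.7 and 20.4 CPM), and ranked 10 of 80 by mean CPM. The insect family mir-276 had 1650 and 334 counts (75.1 and 13.5 CPM), and ranked 14. Below these, mir-932 had 713 and 9 counts, mir-71, which affects lifespan in Caenorhabditis elegans, had 520 and 29 counts, and mir-275 had 285 and 43 counts.

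In sum the 64 vertebrate families had 1790.0 and 1097 CPM, and the 15 invertebrate families 269 and 56.3 CPM. The invertebrate families thus held 12.7% of the families' counts in library 1 and 4.82% in library 2. None of these 15, nor mir-166, had a mouse miRNA row of its name. The entries hold no tag sequences, and the origin of these tags was not analysed here. The 10 plant families with upper-case names, outside the 80, had 256 and 74.8 CPM.

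Each family was compared with the mouse mature and hairpin rows whose description names the same family. Of the 80 families, 58 had such rows and 22 did not. The 22 were the 16 families known from invertebrates or plants, and mir-92, mir-16, lin-4, mir-689, mir-1937 and mir-454. The mouse members of mir-92, mir-16 and lin-4 were listed under the description of another family. The strands below are shown for that reason: those of mir-92 have the seed of miR-25 and are filed as mir-25, miR-16 has the seed of miR-15 and is filed as mir-15, and miR-125, the mammalian relative of the nematode lin-4, is filed as mir-10.
miR-92a-3p: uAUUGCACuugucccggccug
miR-92b-3p: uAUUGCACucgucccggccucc
miR-25-3p: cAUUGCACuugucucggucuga
miR-16-5p: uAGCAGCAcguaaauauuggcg
miR-15a-5p: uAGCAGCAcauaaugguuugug
miR-15b-5p: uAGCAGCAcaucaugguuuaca
miR-195a-5p: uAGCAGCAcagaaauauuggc
miR-125a-5p: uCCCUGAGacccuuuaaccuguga
miR-125b-5p: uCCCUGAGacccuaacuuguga

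By the number in the miRNA name, mir-92 had 2015 and 1352 counts in libraries 1 and 2, above the 1266 and 746 of its 3 mouse rows. Among these rows, miR-92a-3p had 1090 and 670 counts. By the same match mir-16 had 1366 and 1285 counts, below the 3735 and 3351 of its 2 rows, nearly all of them from miR-16-5p with 3727 and 3348 counts. The lin-4 family had 118 and 39 counts, while miR-125a-5p alone had 809 and 994 counts and miR-125b-5p 920 and 997 counts. Of the 5 mouse rows with the seed of miR-92 in the sequence table, 3 are filed as mir-25 and the others as mir-32 and mir-363.

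The 58 families with mouse rows held 35395 and 24345 counts, against 372000 and 306755 counts of their 174 mouse rows. The share of the Rfam entries in this sum was 8.69% (95% interval 8.60 to 8.78) and 7.35% (7.26 to 7.44), or 8.02% ± 0.944. The mouse rows of let-7 were the highest of any matched family, with 179349 and 164605 counts, and without let-7 the mean share was 14.9%. Taken family by family, the median share was 20.7% in library 1 and 20.1% in library 2. The span was wide, from 0.0995% for mir-28 to 92.3% for mir-132 in library 1, and from 0.0337% for mir-378 to 99.0% for mir-708 in library 2. The value of mir-28 depends on the match, as the rows described as mir-28 include miR-151-5p with 6725 and 4135 counts. Matched by the number in the name, the mir-28 rows had 227 and 112 counts, against 7 and 75 counts of the entry. The mean share of 21.5% under that match thus joins libraries that were far apart. For mir-378 the mouse rows had nearly the same counts either way, with 14357 and 11866 by description and 14360 and 11867 by number. Between the libraries the shares of the 58 families had a Spearman rho of 0.86, and for 34 of the 58 their 95% intervals overlapped.

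**Figure D2:**
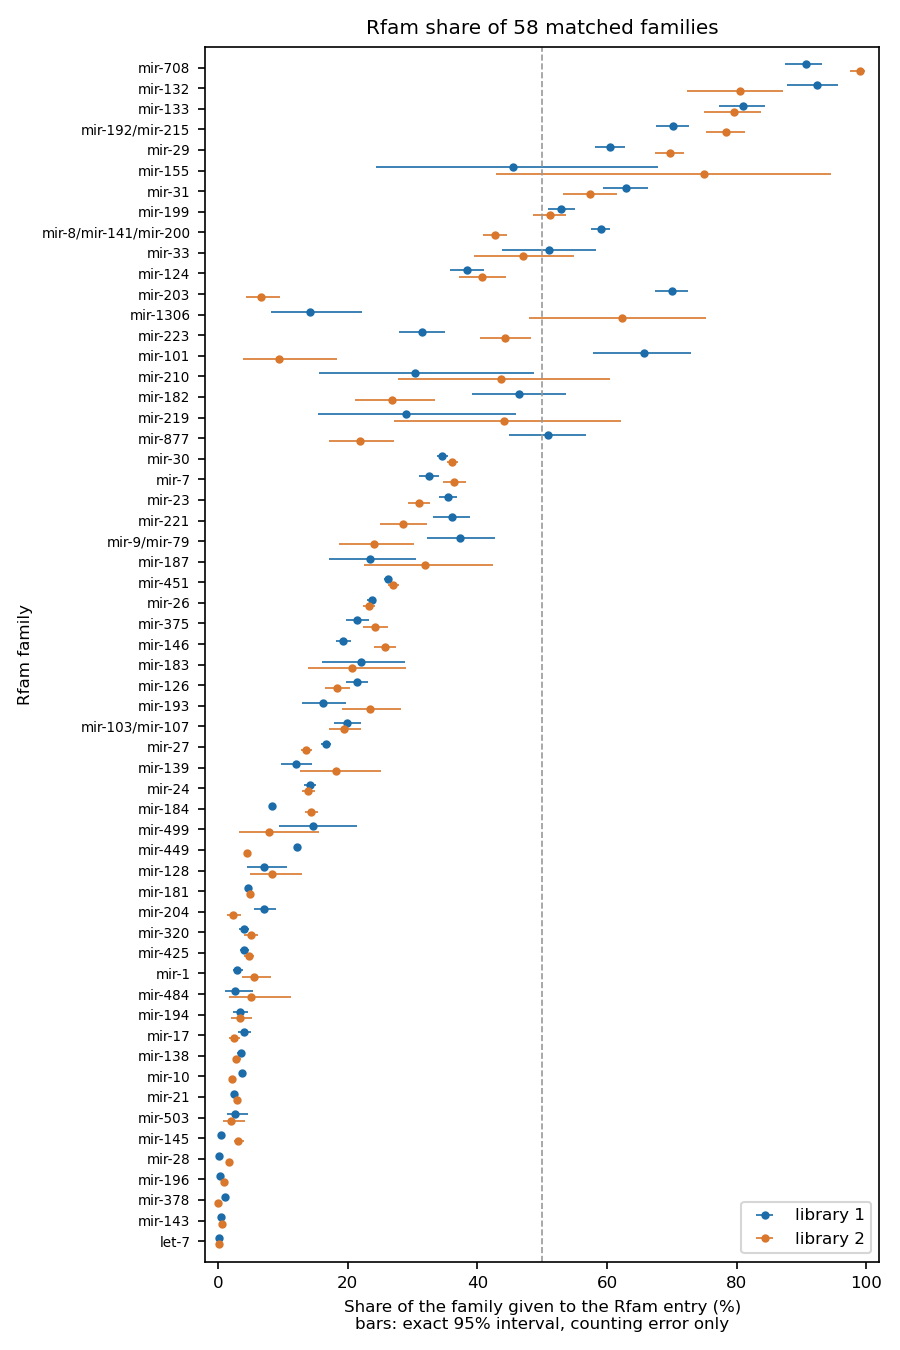
Share of each of the 58 matched families that was given to its Rfam entry, in percent of the Rfam entry and the mouse rows together, with 1 point per library and the exact 95% interval as bars, which cover counting error only; the dashed line marks equal counts. Points of mir-708, mir-132, mir-133, mir-192/mir-215, mir-29, mir-31 and mir-199 lie to the right of the line in both libraries, and let-7 lies at the left edge.

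In 7 of the 58 families the Rfam entry was above the mouse rows in both libraries. These were mir-29, mir-199, mir-192/mir-215, mir-31, mir-708, mir-133 and mir-132. Strands of all but mir-133 are shown because they are among the mouse miRNAs whose summed counts the Rfam entries exceeded.
miR-29a-3p: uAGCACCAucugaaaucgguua
miR-29b-3p: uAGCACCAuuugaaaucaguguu
miR-29c-3p: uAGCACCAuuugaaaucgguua
miR-199a-3p: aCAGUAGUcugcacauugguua
miR-199a-5p: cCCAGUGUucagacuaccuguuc
miR-192-5p: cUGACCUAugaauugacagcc
miR-31-5p: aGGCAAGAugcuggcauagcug
miR-708-5p: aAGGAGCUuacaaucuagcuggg
miR-132-3p: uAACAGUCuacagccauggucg
miR-132-5p: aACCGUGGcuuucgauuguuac

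The mir-29 family, which represses collagens and DNA methyltransferases, had 1060 and 1134 counts, against 694 and 494 counts of its 6 mouse rows. Its share was 60.4% (95% interval 58.1 to 62.7) and 69.7% (67.4 to 71.9). The 3 printed strands of the family have the same seed, and their own counts were low, with 339 and 173 counts for miR-29a-3p, 241 and 211 counts for miR-29c-3p and 33 and 38 counts for miR-29b-3p. Mir29c and Mir29b-2 lie on an exon of the noncoding transcript A330023F24Rik on chromosome 1, opposite an exon of Cd46 on the other strand, with miR-29c-3p at chr1:195037600-195037621. The log2 ratio of the Rfam entry was -0.08 (95% interval -0.20 to 0.04) by listed totals, against -0.67 for its mouse rows, and with the other scalings it left this interval, at -0.26 with TMM and -0.26 with DESeq2 size factors.

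The mir-708 family had the highest mean share. Its entry had 386 and 397 counts, and its mouse row, miR-708-5p, had 40 and 4 counts, so the share was 90.6% (95% interval 87.4 to 93.2) and 99.0% (97.5 to 99.7). The gene lies in an intron of Tenm4, which encodes a teneurin, with miR-708-5p at chr7:96249450-96249472. Its seed is shared by miR-28a-5p, which had 131 and 56 counts, and the mir-28 family entry had 7 and 75 counts.

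For mir-132, which is induced by neuronal activity, the entry had 181 and 99 counts, against 12 and 18 counts for miR-132-5p and 3 and 6 counts for miR-132-3p. In the muscle family mir-133 the entry had 406 and 270 counts and its row, miR-133a-3p, 95 and 69 counts. The mir-192/mir-215 family, known from gut, liver and kidney, had 853 and 572 counts, and miR-192-5p 363 and 158 counts. The mir-31 family had 483 and 321 counts, against 285 and 238 counts of its mouse rows, and mir-199, known from fibroblasts and other mesenchymal cells, had 1165 and 797 counts against 1036 and 762 counts. For mir-199 the shares of 52.9% and 51.1% lay close to equal counts, and the interval in library 2 reached down to 48.6%. In sum the 7 families had 206 and 145 CPM.

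A further 5 families were above their mouse rows in library 1 only and 2 in library 2 only. In library 1 these were mir-8/mir-141/mir-200, mir-203, mir-101, mir-33 and mir-877. The mir-8/mir-141/mir-200 share was 59.0% (95% interval 57.6 to 60.5) and 42.7% (40.8 to 44.6). Its 5 mouse rows were led by miR-429-3p with 890 and 763 counts, followed by miR-141-3p with 359 and 359 counts. Matched by number, which leaves out miR-429-3p, its mouse rows had 986 and 762 counts, and the entry was above them in both libraries. For mir-33 and mir-877 the counts were nearly equal in library 1, with share intervals of 43.7% to 58.3% and 44.9% to 56.8%. In library 2 the families above were mir-155 and mir-1306, where counts were low. The mir-155 entry had 10 and 9 counts against 12 and 3 counts of its mouse rows, and mir-1306 had 15 and 33 counts against 91 and 20 counts.

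At the other end, let-7, the family of differentiated cells, had 369 and 307 counts in its Rfam entry, a share of 0.205% and 0.186%. The Rfam entry of mir-378 had 162 and 4 counts against 14357 and 11866 counts of its mouse rows, and that of mir-143, known from smooth muscle, had 41 and 49 counts against 11106 and 8739 counts. The share was 2.49% and 2.92% for mir-21 and 4.63% and 4.85% for mir-181. Between these ends, mir-451 had 26.2% and 27.1%, mir-30 34.6% and 36.1% and mir-26 23.7% and 23.3%, so that in these 3 families the libraries were close.

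High mouse rows did not always come with a high Rfam entry. Across the 58 families, the log2 CPM of the entry and of its mouse rows had a Spearman rho of 0.47 in library 1 and 0.50 in library 2, given as a description, since all points share the libraries. Matched families covered 54.0% of the counts of all mouse rows in library 1 and 54.9% in library 2. Of the 185 family names among the mouse rows, 58 had an Rfam entry of the same name. The highest without one were mir-743, which holds miR-470 of the X-linked testis cluster, at 4421 and 3137 CPM, mir-34 at 2594 and 2029.6 CPM, mir-465 at 1119 and 906 CPM, and mir-652 at 572 and 415 CPM.

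**Figure D3:**
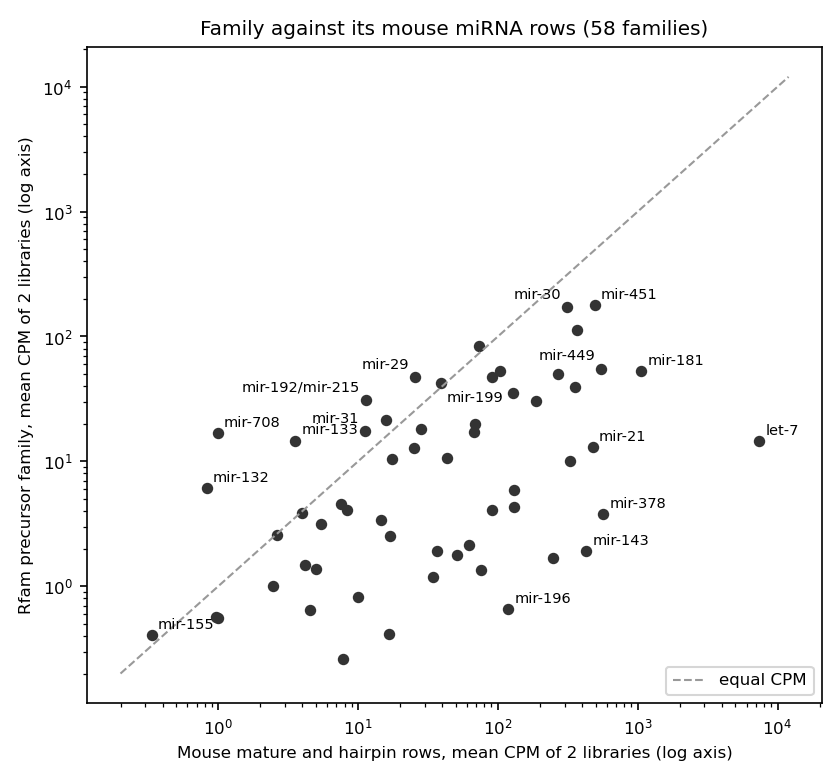
Mean CPM of the Rfam entry against the mean CPM of the mouse mature and hairpin rows of the same family for 58 families, both on log axes; each point is 1 family, some with their names, and the dashed line marks equal CPM. Most points lie below the line, let-7 furthest to the right, and mir-708, mir-132 and mir-133 furthest above it.

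Of the 80 families 70 were lower in library 2, whatever the size of the difference, as were 43.1% of all entries and 74.5% of mouse rows, and for 16 of the 80 the counting interval of the ratio held equality. Among the 76 whose mean count reached 10, the median log2 ratio of library 2 over library 1 was -0.81, against -0.45 for the mouse rows and 0.20 for all entries. Of these 76, 31 were over 2-fold lower in library 2. The same held for 12.6% of all entries and 28.6% of mouse rows. Over 2-fold higher in library 2 were 3 of the 76, against 21.2% of all entries and 6.47% of mouse rows. With TMM, a scaling that sets most entries level, the median over all entries became 0.01 and that over the families -0.99. The libraries are replicates of 1 group, so these values give the spread and were not tested.

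The spread was not even over the families. The 61 vertebrate families with a mean count of at least 10 had a median log2 ratio of -0.75, with 21 over 2-fold lower in library 2. The 14 invertebrate families had a median of -2.01, with 9 over 2-fold lower. The share over 2-fold lower was 12.6% for all entries and 28.6% for mouse rows. It was not particular to invertebrate names, as it held for 6 of the 10 upper-case plant families. Among the 6 vertebrate families without a mouse row it held for 3. Over 4-fold apart in either direction were 14 of the 76 families, against 2231 of 23876 entries and 63 of 433 mouse rows of the same minimum count. These were 7 of the 61 vertebrate and 7 of the 14 invertebrate families. Outside the members, 3 of the 10 upper-case plant families were over 4-fold apart. Of the 43 families with a mean count of at least 100, 7 were over 4-fold apart. No share over all entries at that minimum is given here, so these 7 are named only as the furthest apart. Known from invertebrates were 5 of these 7: mir-932, mir-71, mir-275, mir-276 and mir-2. The entry of mir-932 had a log2 ratio of -6.48 (95% interval -7.62 to -5.55), and mir-71 had -4.34 (95% interval -4.93 to -3.80). The other pair were mir-203 and mir-449. With TMM, mir-263 at -2.15 and mir-166 at -2.06 also passed 4-fold. By contrast the invertebrate families mir-14, with 280 and 178 counts, and mir-282, with 89 and 68 counts, differed less, and mir-6, with 12 and 44 counts, was higher in library 2.

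**Figure D4:**
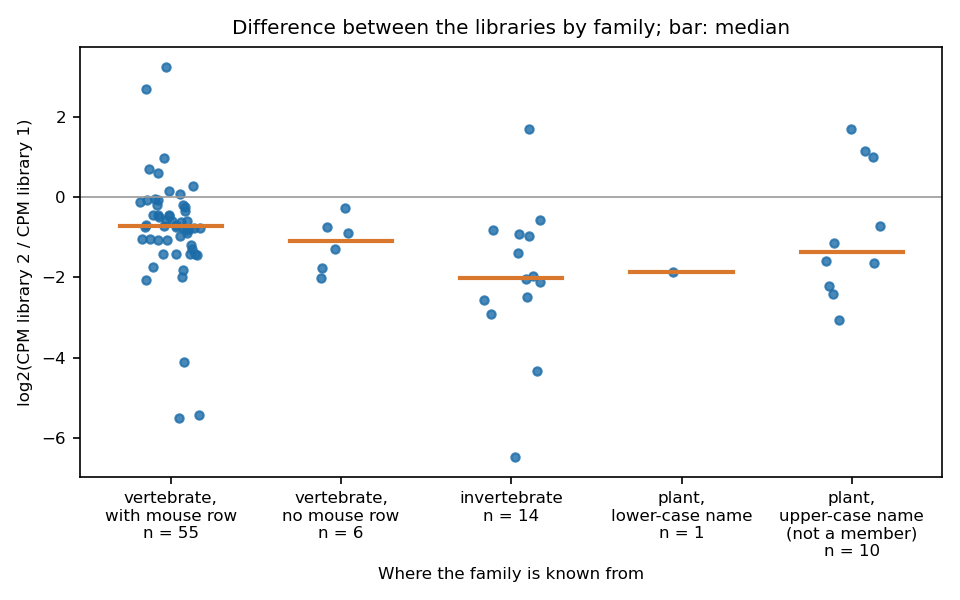
Log2 ratio of CPM in library 2 over library 1 for families with a mean count of at least 10, grouped by where the family is known from and whether it has a mouse row, with 1 point per family and the median as a bar; the 10 upper-case plant families are shown beside the members. Medians were -0.72 for vertebrate families with mouse rows, -1.09 for the 6 without, -2.01 for invertebrate families and -1.37 for upper-case plant families.

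The mir-203 family, known from skin and other layered epithelia, stood apart. Its Rfam entry had 913 and 24 counts, a log2 ratio of -5.43 (95% interval -6.08 to -4.84), whereas miR-203-3p had 282 and 256 counts and miR-203-5p 110 and 86 counts. The share of the entry therefore went from 70.0% in library 1 to 6.56% in library 2. The mir-378 entry likewise had 162 and 4 counts, and the mir-101 entry 4.87 and 0.282 CPM, while the mouse rows of mir-101 had 2.55 and 2.74 CPM. The mir-449 family, known from testis and ciliated cells, had 1961 and 530 counts (89.3 and 21.3 CPM), and its main mouse strand, miR-449a-5p, had 14115 and 11196 counts. The main strands of mir-203 and mir-449 are shown, as these are the vertebrate families over 4-fold apart with a mean count of at least 100.
miR-203-3p: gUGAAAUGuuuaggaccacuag
miR-449a-5p: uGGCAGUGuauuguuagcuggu
Mir449a lies in an intron of Cdc20b at chr13:113037549-113037570, and its seed is that of miR-34a-5p. In the other direction, mir-28 had 7 and 75 counts and mir-145, the partner of mir-143 in smooth muscle, had 8 and 58 counts, while the mouse rows of mir-145 had 1751 and 1791 counts.

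The library ratio of each Rfam entry was set beside that of its mouse rows. In the 55 matched families whose mean count reached 10, the medians were close, at -0.72 for the entries and -0.64 for the mouse rows. Entry and mouse rows had ratios within 2-fold of each other in 41 families and further apart in 14. Across the 55 families the ratios had a Pearson r of -0.11 and a Spearman rho of -0.04, as a description of points that share both libraries. The entry was the lower in 28 of the 55.

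**Figure D5:**
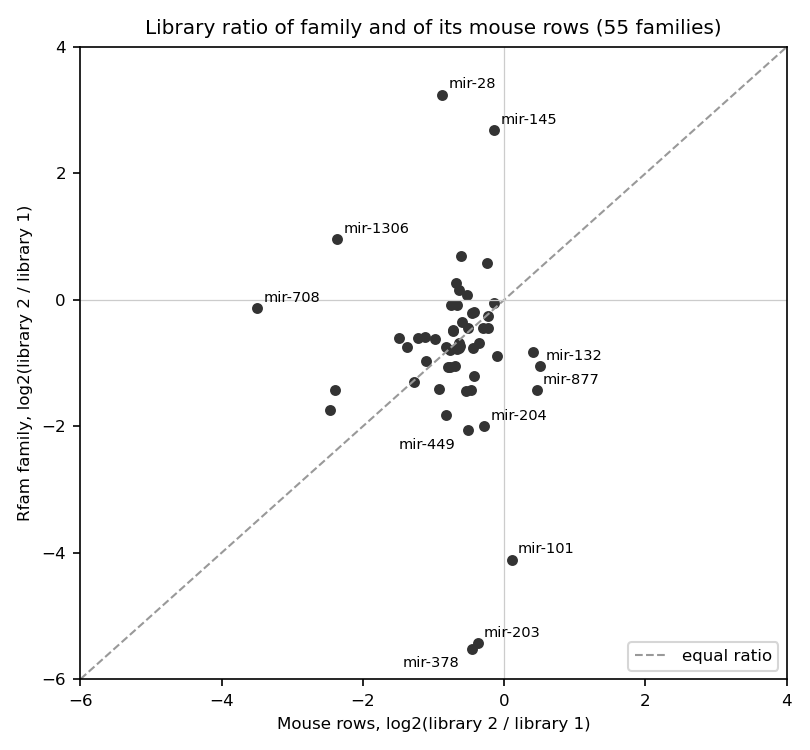
Log2 ratio of library 2 over library 1 for the Rfam entry against that of the mouse rows of the same family, for 55 families with a mean count of at least 10; each point is 1 family, names are given where the 2 ratios are far apart, and the dashed line marks equal ratios. Most points form a cloud below 0 on both axes, with mir-203, mir-378 and mir-101 far below the line and mir-28, mir-145, mir-1306 and mir-708 far above it.

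Some vertebrate families were also grouped in lists by the cells they are best known from or as broadly expressed, each in 1 list and mir-181 among the broad ones, which tests nothing about the cells that released the EVs. The 15 families found of 17 with broad expression had 823 and 579 CPM in sum. All 15 were lower in library 2, as were 70 of the 80 families, 43.1% of all entries and 74.5% of mouse rows. For mir-30 and mir-29 the counting interval of the ratio held equality. The 4 blood cell families found of 8 had 275 and 172 CPM, led by mir-451. Of the others, mir-146, induced by NF-κB signalling, had 42.1 and 28.0 CPM, and mir-223, of myeloid cells, 9.83 and 11.0 CPM. The share of the mir-223 entry was 31.4% and 44.3%. No entry among the 80 had the name mir-144, mir-142, mir-150 or mir-148.

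The 6 epithelial families found of 7 had 248 and 102.1 CPM, led by mir-8/mir-141/mir-200. In library 1 mir-203 came next with 41.6 CPM, but it had 0.967 CPM in library 2. The mir-192/mir-215 family had 38.8 and 23.0 CPM. The mir-375 family, known from pancreatic islets, had 21.4 and 18.7 CPM, and mir-194, which is transcribed with mir-192 and mir-215, had 1.68 and 0.685 CPM. While mir-192/mir-215 held a share of 70.1% and 78.4% against its mouse rows, mir-194 held 3.34% and 3.30%. The 7 families found of 9 of vessel, fibroblast and muscle had 101 and 59.7 CPM, led by mir-199. Of these, mir-126 of endothelial cells had 23.3 and 11.2 CPM, mir-133 18.5 and 10.9 CPM and mir-1 of striated muscle 2.59 and 0.967 CPM.

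The 7 neural families found of 9 had 97.6 and 64.3 CPM, led by mir-7. The neuronal mir-124 had 23.9 and 12.3 CPM, with 846 and 444 counts in its mouse row miR-124-3p, and mir-132 had 8.24 and 3.99 CPM. The 2 families found of the 7 known from testis and ciliated cells were mir-449 and mir-184, with 137 and 52.8 CPM in sum. The mir-184 entry had 1047 and 781 counts, and its main mouse strand, miR-184-3p, 11535 and 4648 counts, so the share was 8.32% and 14.4%. Of this list, mir-34, mir-465, mir-202, mir-743 and mir-880 were measured by their mouse rows alone. Families over 2-fold lower in library 2 were counted where the mean count reached 10. They were 5 of 15 broad, 0 of 3 blood cell and 3 of 6 epithelial families. They were also 3 of 7 vessel, fibroblast and muscle, 2 of 7 neural and 1 of 2 testis and ciliated cell families. This is beside 31 of the 76 families, 12.6% of all entries and 28.6% of mouse rows. The lists are small, and differences between them were not tested.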

How the data were processed

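Small RNA of testicular EVs was measured in 2 libraries of 1 condition on the BGISEQ-500 platform. Reads of low quality had been discarded by the authors, who used Bowtie2 and cmsearch for mapping. Each tag was assigned once, with miRBase first, then piRNA, snoRNA and Rfam. No version or genome build was stated in the sources used. The deposited counts are raw numbers of tags. The TPM column that the authors deposited is tags per 1000000 of a larger total, 23442766 and 26168757 tags in libraries 1 and 2, with no length correction, so their unit is RPM, and they were used only as an alternative scale. The listed counts were 93.7% and 94.9% of these totals.

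From the counts, CPM over all listed counts, shares with exact Clopper-Pearson 95% intervals (SciPy 1.17.1) and log2 ratios of library 2 over library 1 were computed with pandas 2.3.3 and NumPy 2.4.6. Summaries of ratios kept entries whose mean count reached 10. The calculation of ratios was checked on simulated counts. No test between groups could be made with 1 condition. A family and a mouse row were matched where the row's description was the family name. Families were classed by name as known from vertebrates, invertebrates or plants, and those not classed as invertebrate or plant counted as vertebrate. The families mir-932 and mir-981 were classed as invertebrate without being on the planned list of invertebrate names. Named were the 15 of highest mean CPM, those above their mouse rows in both libraries, those over 4-fold apart whose mean count reached 100, the 5 highest without a mouse row, and members of lists by cell type. The other families named were chosen after their values were seen. The members and lists were chosen with earlier results of these data known. Positions and strands are from RefSeq (GRCm38.p6) and gene annotation from GENCODE M21, with miRNA genes left out. Alternatives were TMM from edgeR 4.0.16 and DESeq2 1.42.0 size factors in R 4.3.3, other count minimums, other family matches, row types, classes of family and each library left out. Figures were drawn with matplotlib 3.10.9.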

Additional observations from a re-analysis of the deposited data

How the results depend on the processing

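No paired analysis was possible because the 2 libraries belong to 1 condition and no groups were compared. Of 34 values for the families as a whole under alternatives, 25 kept within the SD of the libraries, within counting error or, for counts of families, within 1.5 times. A single library always lies within the SD of 2 libraries. The sum and the share with a library left out were therefore bound to be among these 25. The share of the Rfam entries was 12.5% against mature rows alone and 12.5% against hairpin rows alone. Both of these values cover only the matched families that have rows of that type, so the set of families differs. In matched families the share was 14.9% without let-7 and 20.4% as the median of the families' own shares. The median was an alternative added after seeing the data, as was the match of lin-4 to miR-125. With a library left out, the share in matched families was 7.35% to 8.69% and the sum of the families 1170.1 to 2120.5 CPM. The number above their mouse rows was then 9 to 12, with 12 in library 1 alone and 9 in library 2 alone. The median log2 ratio of the libraries was -0.99 with TMM, -0.98 with DESeq2 size factors and -0.75 without families known from plants or invertebrates. With a mean count of at least 100, 17 families were over 2-fold lower in library 2, out of 43 and not 76. No share over all entries at that minimum is given here. Matched by the number in the name, 20 families had no mouse row and 10 were above their mouse rows. Of the 58 shares of single families, 52 stayed within the SD of their 2 libraries under that match. Most of these 52 families had the same mouse counts under both matches, so their shares could not change. Of the families whose mouse counts did differ, more left the SD than stayed within it. The mean share of those that left it became 66.6% for mir-8/mir-141/mir-200, 57.6% for mir-221 and 30.7% for mir-10. It became 21.5% for mir-28, 20.4% for mir-9/mir-79 and 16.4% for mir-17. Of the 80 log2 ratios of single families, 72 stayed on their side of a 2-fold difference with TMM and 73 with DESeq2 size factors. The depth limits families with few counts, such as mir-155, whose share intervals were wide.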
